A study of Mus musculus with 40 samples.

Results

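LINE-1 (L1) elements made up 133 of the 1146 subfamilies of transposable elements (TE) whose reads were counted in mouse bone marrow cells with or without the DNA methyltransferase gene Dnmt3a. They were taken as all entries of the TE table whose family is L1, and were split by name alone, with no use of read numbers. The 6 subfamilies whose names begin with L1Md are called young here, the 21 that begin with Lx are called Lx, and the other 106 are called old. The names are read with their case, so that L1MD, a group of old mammalian elements, is not L1Md. The old class is not uniform, since 12 of its names (L1_Mus, L1_Mur, L1_Rod, L1VL and MusHAL1) were taken as those of rodent lineages and hold 34.7% of its reads, and 6 are HAL1 names, for elements that carry only part of an L1. L1_Mm, also in the old class, was not counted among these 12 and stays with the other names.

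L1 is a retrotransposon that copies itself through an RNA, with its own RNA-binding protein and its own reverse transcriptase. Most copies in the mouse genome are truncated and old, while L1Md_A, L1Md_T and L1Md_Gf include full-length copies that can still move, and L1Md_F is an older relative of these with few or no active copies. The Lx elements spread early in the murine lineage, and L1M and HAL1 names are shared with other mammals. Promoters of young L1 are rich in CpG sites and are known to be held silent by DNA methylation, to which Dnmt3a contributes as a de novo methyltransferase. L1 DNA made by reverse transcription is one of the ligands studied upstream of Sting, the adaptor that passes cytosolic DNA sensing on to interferon genes. The design asks what loss of Dnmt3a does to these cells, and whether Sting is needed for it.

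The 40 libraries fall into 12 groups. Sorted stem cells are of the long-term (LT-HSC) or the short-term kind (ST-HSC), and sorted progenitors are common myeloid and granulocyte-macrophage ones together (CMP/GMP) or megakaryocyte-erythroid ones (MEP). Each of these has 4 Dnmt3a knockout (KO) and 4 wild-type (WT) libraries, except for 3 of MEP WT. The c-kit+ fraction, a mixture of progenitors, has 2 Dnmt3a KO, 2 Sting KO, 3 double KO (DKO, Dnmt3a and Sting) and 2 WT libraries. The Dnmt3a KO is a floxed allele (Dnmt3a f/f) removed by Mx1-Cre, whose promoter responds to interferon and works in bone marrow and beyond it. The sources used here do not give how the Cre was induced, whether WT or Sting KO mice carry it, or the age of the mice. The labels name no animals, so that the p-values below measure the spread between libraries, which may be partly technical.

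Gene reads per library, in M (1e6 reads), ran from 3.44 to 47.7, and 31 of the 32 libraries with gene totals had 16.9 or more. The 1 shallow library is the one labelled MEP Dnmt3a KO 2. L1 reads numbered 57689 to 575520 per library. Levels are given as RPM, which here stands for reads per 1e6 reads assigned to genes, and for ST-HSC, which has no gene totals here, as reads per 1000 or per 1e6 TE reads. These units take no account of the number or length of the copies of a subfamily, so levels are compared between groups and not between subfamilies. Reads from L1 copies inside gene transcripts and introns cannot be told apart from transcription that starts in L1.

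Several libraries stand apart and touch the results below. TE reads per 100 gene reads were 12.3 in LT-HSC Dnmt3a KO 2 and 12.4 in LT-HSC WT 1, against 3.81 to 8.16 in the other LT-HSC libraries. In MEP they were 2.22 in Dnmt3a KO 1 and 9.41 to 11.4 in the other 3 KO libraries, against 2.87 to 4.85 in WT. Dnmt3a itself, in counts as RPM (CPM), was 48.3 and 48.9 in c-kit+ Dnmt3a KO and 41.8 to 50.8 in DKO, against 77.4 and 96.8 in Sting KO and 79.9 and 91.1 in WT. In the sorted cells it lay within the WT range in LT-HSC Dnmt3a KO 3, with 119 CPM against 77.2 to 229.5 in LT-HSC WT. The same held for MEP Dnmt3a KO 2, with 41.9 CPM against 29.4 to 49.5 in MEP WT. Such counts include reads outside the floxed part of Dnmt3a, so they cannot settle whether a label is right. LT-HSC markers (Procr, Mecom, Hlf, Slamf1 and Fgd5) summed to 421 to 773 CPM in LT-HSC, against 9.10 to 98.6 in CMP/GMP and MEP. Gata1, the master regulator of the erythroid lineage, was at 199 to 439 CPM in MEP, against 5.28 to 171 in the other sorted cells, and Mpo, of granulocyte progenitors, at 4345 CPM or more in CMP/GMP. The summed MEP markers (Gata1, Klf1, Epor, Itga2b and Pf4) did not separate MEP, with 943 to 2182 CPM in MEP, against 333 to 2532 in LT-HSC and 443 to 1240 in CMP/GMP. The highest of these sums is that of LT-HSC WT 1, with Pf4, a megakaryocyte and platelet gene, at 2191 CPM, Gata1 at 5.33 and Klf1 at 0.199. Some libraries also carried genes of another population. Mpo was at 1378 CPM in LT-HSC WT 1, against 0.913 to 3.87 in the other LT-HSC WT libraries, and at 1884 CPM in the library labelled MEP Dnmt3a KO 2, and both are TE-rich. The part of these genes in the L1 levels was not tested.

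Across all libraries, L1Md held 11.4% of L1 reads, Lx 34.5% and old L1 54.1%. As a share of all TE reads these are 1.87%, 5.64% and 8.84%. Reads of all 6 L1Md and all 21 Lx subfamilies were seen in every library, and those of 85 of the 106 old ones.

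The young class differed in make-up between the c-kit+ and the sorted libraries. L1Md_Gf held 0.381% to 0.677% of L1Md reads in the 9 c-kit+ libraries and 0.855% to 2.61% in the 31 sorted ones, with no overlap. L1Md_F2 led in both, with 42.9% to 44.4% in c-kit+ and 41.2% to 55.0% in sorted cells, followed by L1Md_T with 27.4% to 29.6% and 22.8% to 33.4%. L1Md_A held 13.6% to 16.5% of young reads in c-kit+ and 9.46% to 17.1% in sorted cells, and L1Md_F3 held 9.25% to 11.6% and 6.03% to 9.72%.

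L1Md as a whole made up 14.6% to 15.4% of L1 reads in c-kit+ libraries. The sorted libraries lay lower, at 9.06% to 13.5% in LT-HSC, 8.55% to 11.8% in ST-HSC, 9.14% to 10.9% in CMP/GMP and 8.19% to 14.0% in MEP. The c-kit+ and sorted cells share no library, and no test was run between them, because cell type and preparation cannot be told apart.

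**Figure D1:**
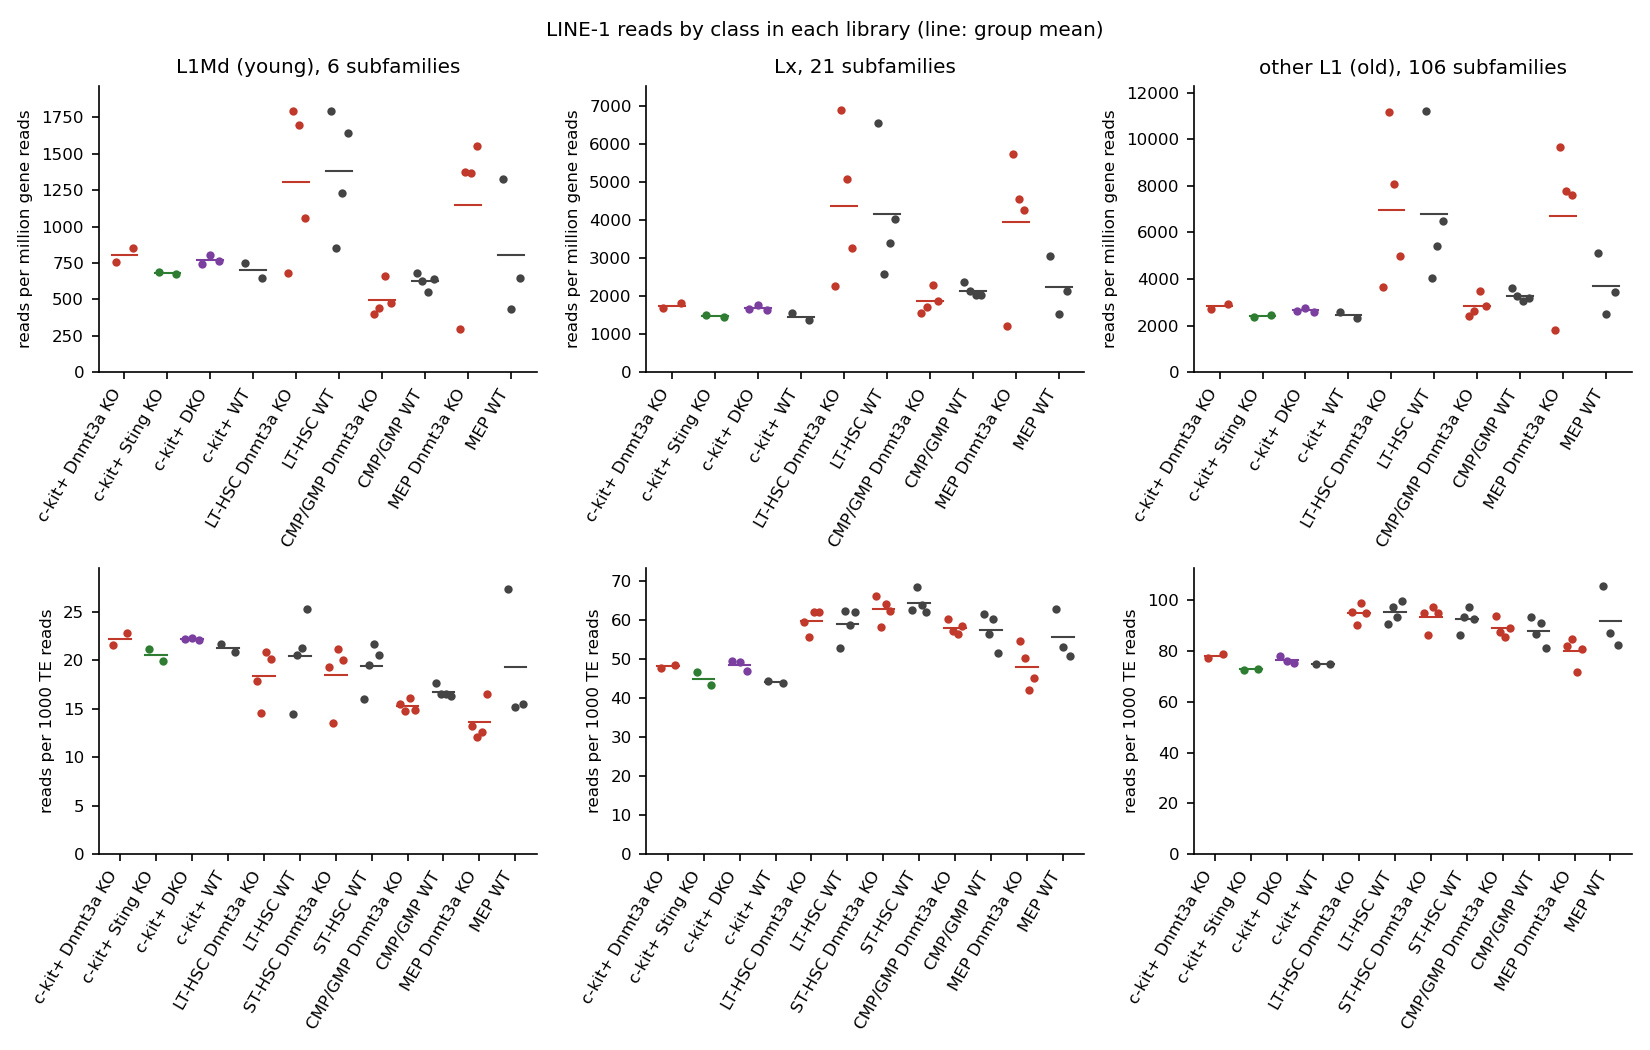
Reads of L1Md, Lx and old L1 in each library, as RPM (reads per 1e6 gene reads, top, groups with gene totals) and per 1000 TE reads (bottom, all 12 groups). Points are libraries and lines are group means. RPM levels spread widely in LT-HSC and MEP, where L1Md ran from 682 to 1796 and from 294 to 1555 among Dnmt3a KO libraries.

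In c-kit+ cells, L1 reads were slightly more abundant in Dnmt3a KO than in WT, in young, Lx and old subfamilies alike. In this comparison 1 of 127 L1 subfamilies tested was called. The 6 L1Md subfamilies together had 760 and 850 RPM in Dnmt3a KO libraries, against 753 and 649 in WT. Lx had 1687 and 1811 in Dnmt3a KO, against 1545 and 1366 in WT. Old L1 had 2718 and 2938 in Dnmt3a KO, against 2601 and 2323 in WT. In each class both Dnmt3a KO libraries lay above both WT libraries, by a margin that was narrow for L1Md. Libraries within a c-kit+ group were closely alike. Their r of log2 CPM over genes was 0.998 in Dnmt3a KO, 0.997 in Sting KO and in WT and 0.995 to 0.996 in DKO.

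Each subfamily was tested with edgeR's quasi-likelihood test over the whole TE table, with Benjamini-Hochberg adjustment, and is said to be called at an adjusted p under 0.05. With Dnmt3a KO against WT, 0.328% of the 916 TE subfamilies tested were called, and 0.218% were called higher. Of the L1 subfamilies, 26 had a raw p under 0.05, all of them higher, against 13.4% of all TE. Estimates were positive for 6 of 6 L1Md, 20 of 21 Lx and 85 of 100 old subfamilies tested, and for 76.7% of all TE. The median log2 fold change was 0.24 for L1Md, 0.21 for Lx and 0.19 for old L1, beside 0.15 for all TE. The 12 rodent-lineage names of the old class had a median of 0.22 and its other names one of 0.19. The groups did not overlap, with Dnmt3a KO higher, for 3 L1Md, 17 Lx and 56 old subfamilies, against 39.1% of all TE. When libraries were scaled to their TE totals in place of gene reads, the median of all TE was -0.01 and those of L1Md, Lx and old L1 were 0.08, 0.04 and 0.03, with no call.

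None of the L1Md subfamilies was called. L1Md_F had 10.9 and 12.5 RPM in Dnmt3a KO, against 8.28 and 7.23 in WT. Both Dnmt3a KO libraries were higher, with a log2 fold change of 0.59 (SE 0.15, edgeR adjusted p = 0.0832). L1Md_A had 119 and 135 in Dnmt3a KO, against 106 and 89.1 in WT, again without overlap (0.37, SE 0.13, edgeR adjusted p = 0.251). L1Md_F2, the most abundant, had 336 and 365 in Dnmt3a KO, against 329 and 286 in WT (0.18, SE 0.11, edgeR adjusted p = 0.427). L1Md_T, with 210 and 252 in Dnmt3a KO and 222 and 188 in WT, overlapped between the groups, and so did L1Md_Gf, with 4.77 and 5.76 against 4.80 and 3.78. L1Md_F3 was level, at 79.9 and 80.1 in Dnmt3a KO and 83.4 and 75.4 in WT (0.01, SE 0.11).

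The 1 call was an old subfamily, L1M4a1, a mammalian-wide L1 with few reads, named here after its values were seen, because its mean over the Dnmt3a KO and WT libraries compared is below the 5 RPM set for naming. It had 4.61 and 5.90 RPM in Dnmt3a KO (168 and 162 reads), against 2.46 and 2.38 in WT (77 and 95 reads). Both Dnmt3a KO libraries lay above both WT libraries, with a log2 fold change of 1.11 (SE 0.19, edgeR adjusted p = 0.0107). It was also high in Sting KO, at 3.84 and 4.50, and in DKO, at 4.45, 3.78 and 3.76. Those differences from WT missed the threshold, at 0.82 for Sting KO (edgeR adjusted p = 0.123) and 0.75 for DKO (edgeR adjusted p = 0.0812). The call was lost under TE library sizes, with a term for sex, and without Dnmt3a KO 2, WT 1 or WT 2, with adjusted p up to 0.579, while the log2 fold change was 0.88 to 1.27 over all 16 alternatives.

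The subfamily Lx, which gives the Lx class its name, had the highest estimate of its class in both Dnmt3a KO and DKO cells. It had 257 and 268 RPM in Dnmt3a KO, 287, 327 and 260 in DKO and 244 and 157 in Sting KO, against 163 and 137 in WT. All Dnmt3a KO and DKO libraries lay above all Sting KO and WT libraries, and 1 of the 2 Sting KO libraries fell within the WT range. Lx rose in DKO against WT, with a log2 fold change of 0.99 (SE 0.16, edgeR adjusted p = 0.0158). In Dnmt3a KO against WT it was 0.80 (SE 0.17, edgeR adjusted p = 0.0514), and in Sting KO 0.46 (SE 0.17, edgeR adjusted p = 0.626). The DKO call was lost under TE library sizes and without WT 1 or WT 2, with adjusted p up to 0.506, and the log2 fold change was 0.87 to 1.12 over all 16. Lx8 and Lx9, the most abundant Lx subfamilies, had log2 fold changes of 0.19 (SE 0.12) and 0.23 (SE 0.11) in Dnmt3a KO and 0.11 (SE 0.11) and 0.17 (SE 0.10) in DKO.

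**Figure D2:**
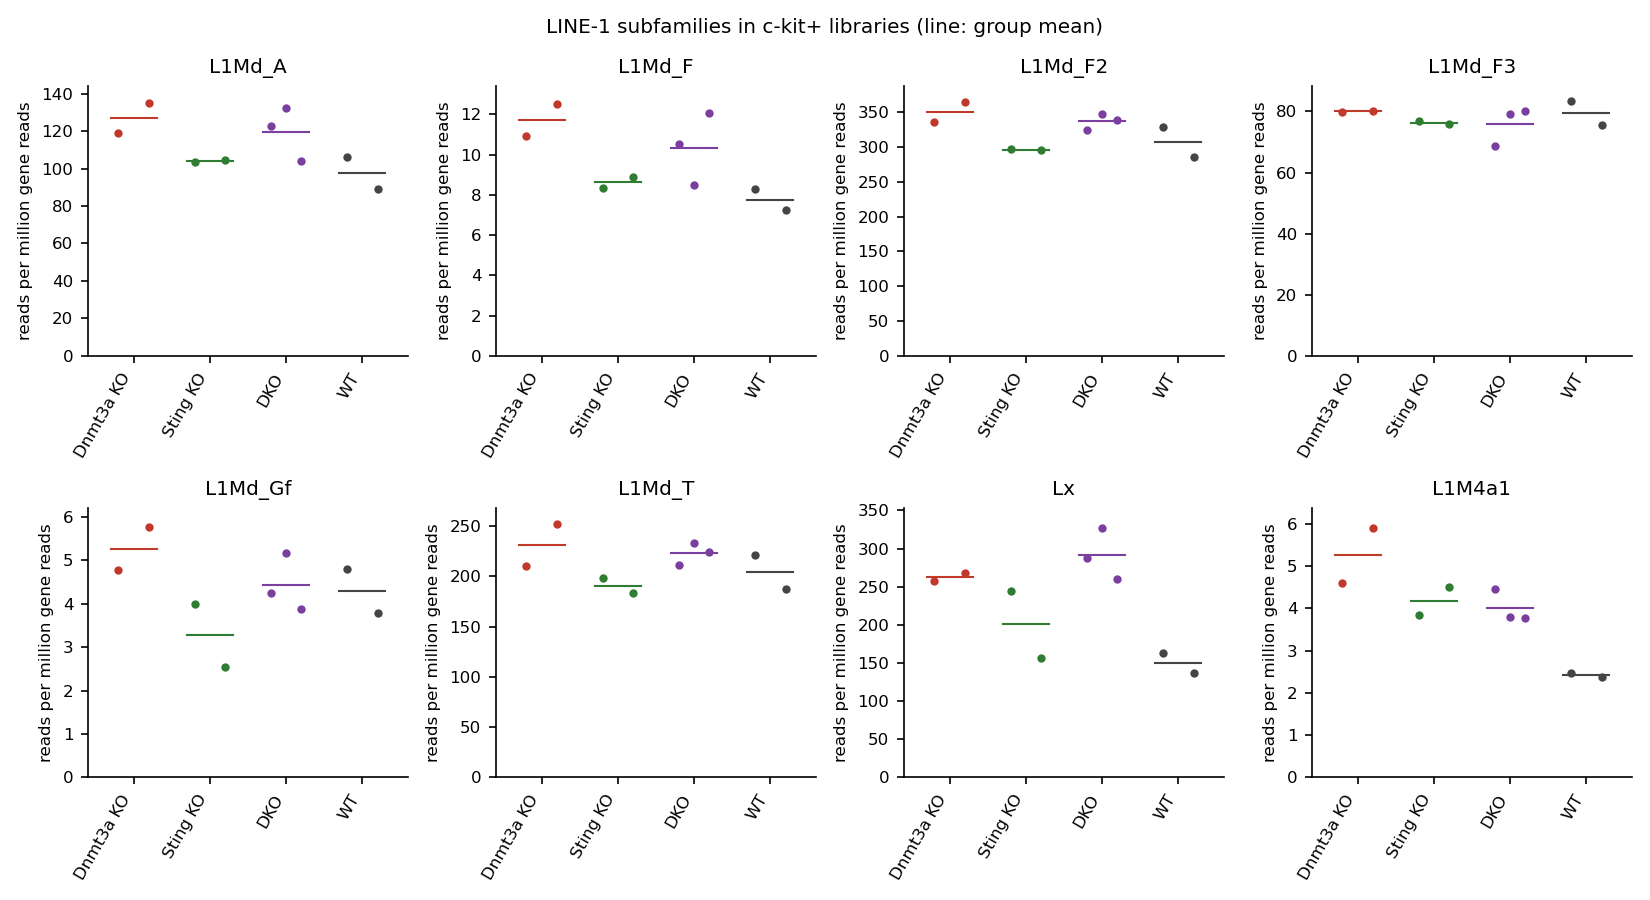
Reads as RPM of the 6 L1Md subfamilies, Lx and L1M4a1 in the 9 c-kit+ libraries, with genotypes in columns. Points are libraries and lines are group means. L1M4a1 stands at 2.38 and 2.46 in WT and at 3.76 or above in all 7 other libraries, while L1Md_F3 is level across genotypes.

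Loss of Sting alone left L1 about where it was in WT. L1Md had 687 and 671 RPM in Sting KO, against 753 and 649 in WT, and the Sting KO libraries lay within the WT range. The medians of the log2 fold changes were -0.02 for L1Md, 0.02 for Lx and -0.01 for old L1, with 0.00 for all TE. No L1 subfamily was called by edgeR, against 0.218% of all TE, and 5 had a raw p under 0.05, against 6% of all TE. DESeq2 called none either, and 0.109% of all TE.

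In DKO, which lacks both genes, L1Md had 742, 806 and 763 RPM, against 753 and 649 in WT. The groups overlapped. The medians were 0.16 for L1Md, 0.15 for Lx and 0.10 for old L1, beside 0.11 for all TE, and Lx was the 1 L1 subfamily called, against 0.218% of all TE. Estimates were positive for 102 of 127 L1 subfamilies and 74.6% of all TE. A raw p under 0.05 was found for 18 of them, all higher, against 10.2% of all TE. Of the L1 subfamilies, 32 lay higher in all DKO than in all WT libraries, against 17.6% of all TE.

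Dnmt3a KO libraries had L1 levels as high as DKO or slightly higher. DKO against Dnmt3a KO gave medians of -0.04 for L1Md, -0.04 for Lx and -0.07 for old L1, beside -0.03 for all TE. No L1 subfamily was called by edgeR, against 0.109% of all TE, and 3 had a raw p under 0.05, against 5.46% of all TE. DESeq2 called none either, and 0.218% of all TE. DKO against Sting KO, which compares Dnmt3a loss in cells that all lack Sting, gave medians of 0.21 for L1Md, 0.12 for Lx and 0.14 for old L1, beside 0.11 for all TE. Again no L1 subfamily was called, against 0.328% of all TE, while 12 had a raw p under 0.05, against 7.31% of all TE, and 56 lay higher in all DKO libraries, against 32.2% of all TE. DESeq2 called none here, and 0.218% of all TE. Since the comparisons against WT share the same 2 WT libraries, and those of DKO the same 3 DKO libraries, they are not independent of each other.

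The difference between the effect of Dnmt3a loss without Sting and its effect with Sting was tested as an interaction. None of the 127 L1 subfamilies was called by edgeR, against 0.437% of all TE, and 5 had a raw p under 0.05, against 4.91% of all TE. The medians of the difference were -0.02 for L1Md, -0.07 for Lx and -0.04 for old L1, beside -0.02 for all TE. L1M4a1 came closest, at -1.18 (SE 0.25, edgeR adjusted p = 0.0589). DESeq2 called 1 L1 subfamily in this contrast, and 0.546% of all TE.

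The c-kit+ libraries differed in more than L1. Macrophage markers (Adgre1, Mrc1, C1qa, Hmox1 and Vcam1) summed to 468 to 495 CPM in Dnmt3a KO, 280 to 288 in Sting KO and 312 to 460 in DKO, against 1164 to 1274 in WT, and their part in the L1 differences was not tested. In such bulk libraries, fewer cells of a type and less RNA per cell cannot be told apart. Both Dnmt3a KO libraries and DKO 1 carry Xist and the other 6 carry transcripts of chromosome Y, so that Dnmt3a KO and WT differ in sex as well. With a term for sex, which the DKO libraries let the fit separate, no L1 subfamily was called in Dnmt3a KO against WT, and the medians were 0.32 for L1Md, 0.26 for Lx and 0.24 for old L1, beside 0.22 for all TE. That term is estimated from DKO 1 against DKO 2 and DKO 3 alone, so these values rest on 1 library with Xist.

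In the sorted populations, no L1 subfamily was called in Dnmt3a KO against WT cells by edgeR, and the medians pointed in different directions. In CMP/GMP, L1 reads were lower in most KO libraries. L1Md had 399, 443, 659 and 473 RPM in KO, against 679, 626, 552 and 643 in WT. The 3 lower KO libraries lay below every WT library, and KO 3 lay within the WT range. WT 2 and WT 4 are closely alike (r = 0.997 of log2 CPM over genes). The groups also differ in sex make-up, since KO 3, KO 4 and WT 3 carry Xist and the others transcripts of chromosome Y. The medians were -0.38 for L1Md, -0.22 for Lx and -0.21 for old L1, beside -0.20 for all TE. None of the 893 TE subfamilies tested was called (0%), and 12 of 128 L1 subfamilies had a raw p under 0.05, all lower, against 6.83% of all TE. DESeq2 called no L1 subfamily and 0.670% of all TE.

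Within the young class of CMP/GMP, the subfamilies did not move as one. L1Md_F had 10.01, 6.34, 13.8 and 7.42 RPM in KO, against 8.89, 6.08, 5.93 and 5.74 in WT. Every KO library was above 3 of the 4 WT libraries, with a log2 fold change of 0.49 (SE 0.29, edgeR adjusted p = 0.619). L1Md_A had 46.3, 63.8, 82.8 and 63.8 in KO, against 107, 82.3, 74.5 and 74.2 in WT (-0.40, SE 0.18, edgeR adjusted p = 0.619). L1Md_F2, L1Md_F3, L1Md_Gf and L1Md_T had log2 fold changes of -0.36, -0.40, -0.55 and -0.30. Lx, the subfamily that rose in c-kit+ DKO cells, had 281 to 366 in KO and 288 to 537 in WT CMP/GMP, with overlap.

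LT-HSC libraries spread more within genotypes than between them. L1Md had 682, 1796, 1697 and 1055 RPM in KO, against 1793, 855, 1231 and 1642 in WT. The high libraries include the TE-rich one of each genotype, KO 2 and WT 1. The medians were -0.10 for L1Md, 0.14 for Lx and 0.05 for old L1, beside 0.05 for all TE. None of the 904 TE subfamilies was called (0%) by edgeR or DESeq2, and 2 of 128 L1 subfamilies had a raw p under 0.05, against 0.996% of all TE. Log2 fold changes of the L1Md subfamilies ran from -0.28 for L1Md_F3 to 0.01 for L1Md_A, with SE of 0.46 to 0.53.

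ST-HSC, scaled to TE totals, showed no shift of L1 within TE reads. This scaling cannot show a rise or fall that L1 shares with all TE, so L1 per gene read is not known here. L1Md had 19.3, 13.5, 21.2 and 20.02 reads per 1000 TE reads in KO, against 15.9, 19.5, 21.6 and 20.5 in WT. KO 2 was the lowest of the 8 and also has a TE profile apart from its group. Lx averaged 62.9 ± 3.36 in KO and 64.4 ± 2.96 in WT, and old L1 93.4 ± 4.92 in KO and 92.4 ± 4.67 in WT (SD, n = 4 each). KO 3 and KO 4 are closely alike (r = 0.996 of log2 levels over TE subfamilies, against 0.897 to 0.932 for the other KO pairs). The SD and the tests here count them as separate libraries, so the spread among KO libraries may be understated. The medians were -0.04 for L1Md, 0.01 for Lx and 0.05 for old L1, beside -0.01 for all TE. None of the 944 TE subfamilies was called (0%) by edgeR or DESeq2, and 10 of 130 L1 subfamilies had a raw p under 0.05, against 5.30% of all TE.

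MEP showed the widest difference, and it depended on 1 library and on the scaling. L1Md had 294, 1373, 1365 and 1555 RPM in KO, against 1326, 435 and 645 in WT. KO 1 was the lowest of the 7 libraries and the other 3 KO libraries the highest. Lx had 1213, 5727, 4564 and 4260 in KO, against 3054, 1532 and 2124 in WT. Old L1 had 1817, 9671, 7754 and 7605 in KO, against 5122, 2497 and 3447 in WT, in the same order. The medians were 0.49 for L1Md, 0.82 for Lx and 1.08 for old L1, beside 0.86 for all TE, so that L1Md lay below the shift of all TE and old L1 above it.

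None of the 858 TE subfamilies tested in MEP was called by edgeR (0%), while 18 of 124 L1 subfamilies had a raw p under 0.05, 17 of them higher, against 16.6% of all TE. DESeq2 called 3 old L1 subfamilies and 3.26% of all TE. Without KO 1, edgeR called 70 L1 subfamilies higher (3 L1Md, 10 Lx and 57 old), when 44.1% of all 827 TE tested were called. The medians then were 0.80 for L1Md, 1.14 for Lx and 1.34 for old L1, beside 1.15 for all TE. Scaled to TE totals with all libraries, the medians turned to -0.39 for L1Md, -0.07 for Lx and 0.09 for old L1, beside -0.05 for all TE. KO 3 and KO 4 are closely alike (r = 0.997 of log2 CPM over genes), though beyond sampling noise, and the library labelled KO 2 has 3.44 M gene reads and Dnmt3a within the WT range, and these are the 3 KO libraries that are high in L1.

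**Figure D3:**
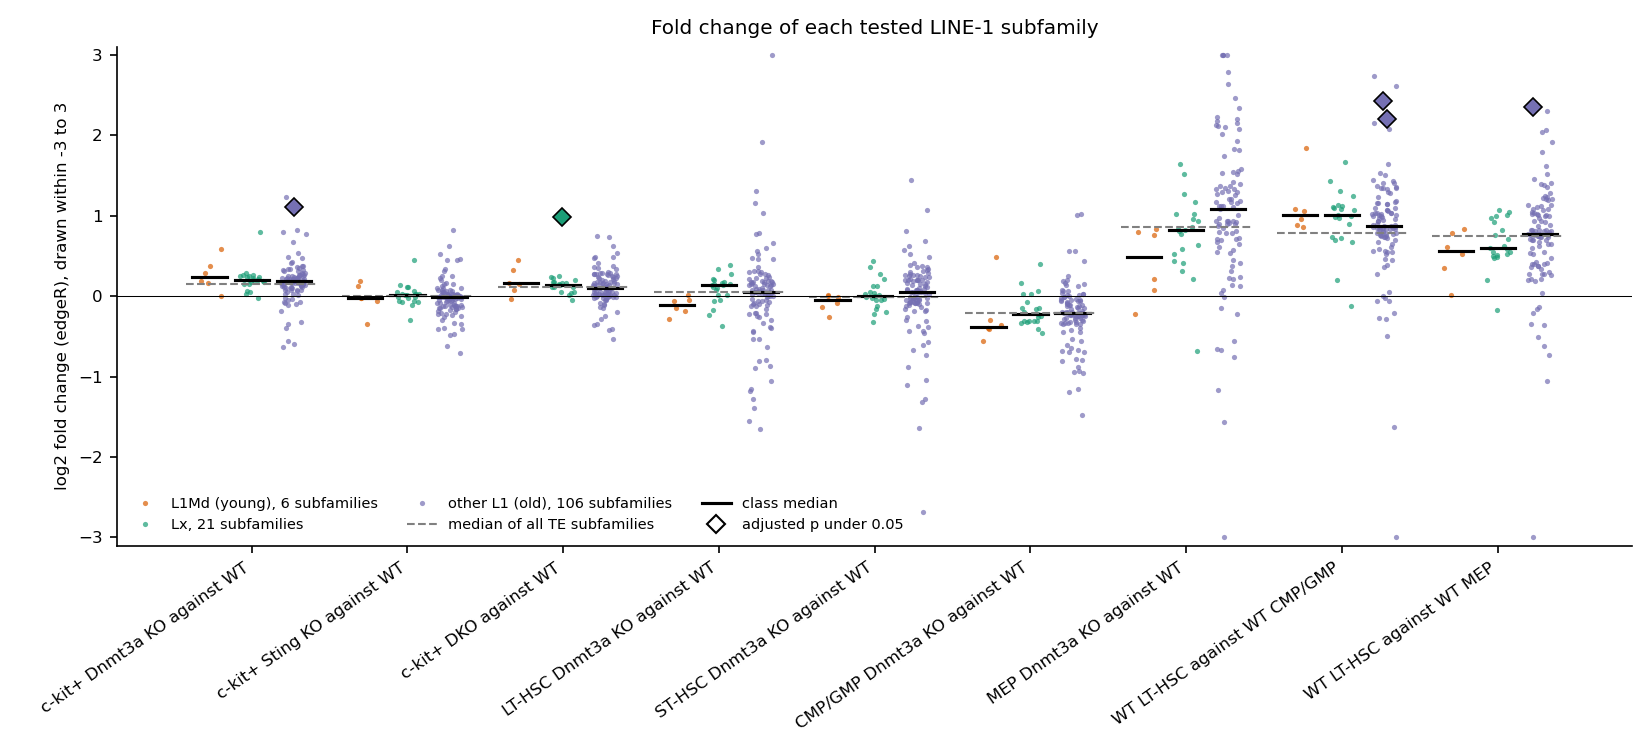
Log2 fold change (edgeR) of each tested L1 subfamily in 9 comparisons, coloured by class, with class medians as black bars, the median of all TE as dashes and called subfamilies as diamonds. Values beyond 3 either way are drawn at 3. Class medians lie near the dashes in each comparison, and the widest gap, in MEP, is 0.49 for L1Md against 0.86 for all TE.

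The effect of Dnmt3a loss was compared between LT-HSC, CMP/GMP and MEP in 1 fit, with an F-test of its difference. No L1 subfamily of 133 and none of the 1016 TE subfamilies tested was called by edgeR (0%), and 21 L1 subfamilies had a raw p under 0.05, against 16.4% of all TE. DESeq2 called 1 L1 subfamily and 0.296% of all TE. Without MEP KO 1, edgeR called 23 of them, and 17.5% of all TE.

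Among WT cells, LT-HSC carried more L1 reads per gene read than CMP/GMP or MEP. L1Md had 1793, 855, 1231 and 1642 RPM in LT-HSC, against 679, 626, 552 and 643 in CMP/GMP. Every LT-HSC library was above every CMP/GMP library, also for Lx (2596 to 6564 in LT-HSC, against 2018 to 2373) and for old L1 (4053 to 11225, against 3038 to 3603). MEP WT, at 1326, 435 and 645 for L1Md, overlapped with both, with 1 library inside the LT-HSC range, 1 inside the CMP/GMP range and 1 below all libraries of both. All 6 L1Md subfamilies had a raw p under 0.05 for LT-HSC against CMP/GMP and none was called, with log2 fold changes of 0.87 for L1Md_F2 to 1.85 for L1Md_F (SE 0.49, edgeR adjusted p = 0.0590). The medians were 1.01 for L1Md, 1.01 for Lx and 0.88 for old L1, beside 0.78 for all TE.

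Of 131 L1 subfamilies tested for LT-HSC against CMP/GMP, 2 were called, both old and both higher, against 0.726% of 964 TE subfamilies called either way and 0.519% called higher. The groups did not overlap, with LT-HSC higher, for 74 L1 subfamilies, against 29.1% of all TE, and 85 had a raw p under 0.05, against 39.0% of all TE. The numbers of calls varied widely. DESeq2 called 80 L1 subfamilies, among them all 6 L1Md, together with 35.4% of all TE. Without LT-HSC WT 2 edgeR called 87, and 39.5% of all TE, and without LT-HSC WT 1, the library with high Pf4 and Mpo, it called 7, and 3.02% of all TE. Without LT-HSC WT 4, without MEP WT 3 or 4, or without any 1 CMP/GMP WT library it called 0, without LT-HSC WT 3 it called 1 and without MEP WT 1 it called 5. CMP/GMP WT 2 and 4 are closely alike (r = 0.997 of log2 CPM over genes), and with these summed as 1 library it called 0. Scaled to TE totals, the medians were 0.22 for L1Md, 0.20 for Lx and 0.07 for old L1, beside -0.01 for all TE, and no L1 subfamily was called.

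L1ME3C, an old mammalian-wide subfamily, was called against both progenitor populations. It had 20.7, 8.11, 13.6 and 20.5 RPM in LT-HSC WT, against 2.58, 3.38, 2.17 and 3.85 in CMP/GMP WT and 2.79, 2.08 and 3.18 in MEP WT. The lowest LT-HSC library was above all 7 others. It was higher in LT-HSC by a log2 fold change of 2.21 against CMP/GMP (SE 0.40, edgeR adjusted p = 0.0392) and of 2.35 against MEP (SE 0.45, edgeR adjusted p = 0.0177). The first call was lost in 9 of 18 alternatives, with adjusted p up to 0.170, and the second without any 1 MEP WT library, up to 0.132. The log2 fold changes were 1.42 to 2.42 and 1.60 to 2.56 over these alternatives. In Dnmt3a KO LT-HSC it had 9.68, 20.3, 23.7 and 5.21, which overlaps with LT-HSC WT (-0.08, SE 0.61). ST-HSC had 56.1 to 177 reads of it per 1e6 TE reads in KO and 115 to 260 in WT.

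L1MEi, another old subfamily, with few reads and named after its values were seen for the same reason as L1M4a1, had 12.4, 3.87, 4.21 and 6.92 RPM in LT-HSC WT. In CMP/GMP WT it had 1.77, 0.671, 1.11 and 0.949, and in MEP WT 1.66, 1.72 and 1.76. LT-HSC WT was again above both, with a log2 fold change of 2.43 against CMP/GMP (SE 0.52, edgeR adjusted p = 0.0421) and 1.80 against MEP (SE 0.57, edgeR adjusted p = 0.0967). The call was lost in 10 of 18 alternatives, with adjusted p up to 0.171 and log2 fold changes of 1.57 to 2.73. The subfamily Lx behaved otherwise, with 656, 328, 339 and 411 in LT-HSC WT, against 537, 402, 430 and 288 in CMP/GMP WT (-0.12, SE 0.33). It was the 1 Lx subfamily of 21 with a negative estimate in that comparison.

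**Figure D4:**
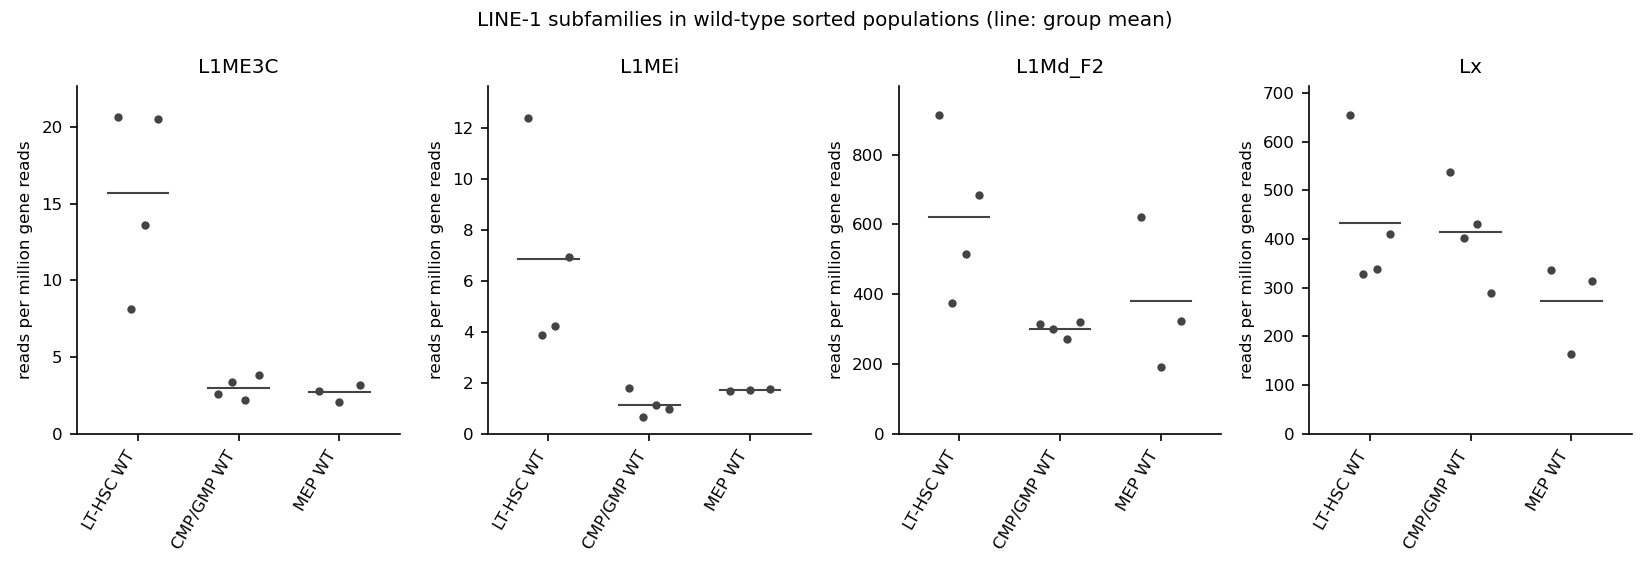
Reads as RPM of L1ME3C, L1MEi, L1Md_F2 and Lx in WT LT-HSC, CMP/GMP and MEP libraries. Points are libraries and lines are group means. L1ME3C lies at 8.11 or above in LT-HSC and at 3.85 or below in the other populations, while Lx overlaps between them.

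For LT-HSC against MEP, L1ME3C was the 1 L1 subfamily called, against 0.622% of all TE, and 46 of 131 had a raw p under 0.05, against 28.2% of all TE. The medians were 0.56 for L1Md, 0.60 for Lx and 0.77 for old L1, beside 0.75 for all TE. DESeq2 called 26 L1 subfamilies and 18% of all TE, and edgeR called 39, with 23.9% of all TE, without LT-HSC WT 2 and 0 without any 1 MEP WT library. For CMP/GMP against MEP, none was called by edgeR, as none of all TE was (0%), with 3 L1 subfamilies at a raw p under 0.05, against 4.46% of all TE, and DESeq2 called none and 0.415% of all TE. The medians there were -0.35 for L1Md, -0.31 for Lx and -0.10 for old L1, beside -0.03 for all TE.

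LT-HSC and ST-HSC, compared within TE reads, differed little. The medians for LT-HSC against ST-HSC were 0.13 for L1Md, -0.01 for Lx and 0.13 for old L1, beside 0.02 for all TE. None of the 931 TE subfamilies tested was called (0%) by edgeR or DESeq2, and 6 of 130 L1 subfamilies had a raw p under 0.05, against 3.22% of all TE.

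The ratio of young to old L1 reads asks whether the classes moved apart, and it does not depend on the scaling. Its log2 value was -1.84 and -1.79 in c-kit+ Dnmt3a KO, -1.77 and -1.87 in Sting KO and -1.81, -1.77 and -1.77 in DKO, against -1.79 and -1.84 in WT. All 4 genotypes overlapped. The mean difference from WT was 0.00 in Dnmt3a KO, -0.01 in Sting KO and 0.03 in DKO, beside pooled SD of 0.04, 0.05 and 0.03.

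In the sorted cells the mean ratio was lower in KO than in WT in all 4 populations, and the groups overlapped in each. In CMP/GMP it was -2.54 ± 0.09 in KO and -2.39 ± 0.06 in WT (SD, n = 4 each), a difference of -0.15. In LT-HSC it was -2.38 ± 0.18 in KO and -2.25 ± 0.28 in WT, a difference of -0.13, and in ST-HSC -2.35 ± 0.22 in KO and -2.26 ± 0.12 in WT, a difference of -0.10. In MEP it was -2.56 ± 0.22 in KO (n = 4) and -2.30 ± 0.30 in WT (n = 3), a difference of -0.26. The pooled SD were 0.08, 0.24, 0.18 and 0.26 in this order. They measure the spread of single libraries and not the error of a difference of means, which was not tested. With single libraries left out the difference was -0.19 to -0.12 in CMP/GMP, and -0.27 (without WT 1) to -0.04 (without WT 4) in LT-HSC. In MEP it was -0.38 (without WT 3) to -0.09 (without WT 1). In ST-HSC it was -0.15 without WT 1 and turned to 0.01 without KO 2. With other denominators, near-identical libraries summed or TE-rich ones left out, it was -0.18 to -0.13 in CMP/GMP and in LT-HSC. In the same way it was -0.14 to -0.07 in ST-HSC and -0.41 to -0.26 in MEP. The lowest of these values in CMP/GMP and MEP came without rodent names in the old class.

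Among the TE-rich libraries, the ratio was low in LT-HSC Dnmt3a KO 2 (-2.63), LT-HSC WT 1 (-2.65) and the library labelled MEP Dnmt3a KO 2 (-2.82), while MEP Dnmt3a KO 3 and 4 had -2.51 and -2.29. The highest ratios of the sorted cells were -1.98 in LT-HSC WT 4 and -1.95 in MEP WT 1. The ratio also did not separate WT populations, with a difference of 0.14 for LT-HSC against CMP/GMP beside a pooled SD of 0.21, 0.04 against MEP beside 0.29, and 0.01 against ST-HSC beside 0.22. With single libraries left out these were 0.05 (without LT-HSC WT 4) to 0.27 (without LT-HSC WT 1), -0.07 (without MEP WT 3) to 0.22 (without MEP WT 1), and -0.08 (without LT-HSC WT 4) to 0.14 (without LT-HSC WT 1). The ratio of Lx to old L1 reads lay in narrower bounds, with log2 values of -0.84 to -0.45 over all 40 libraries.

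**Figure D5:**
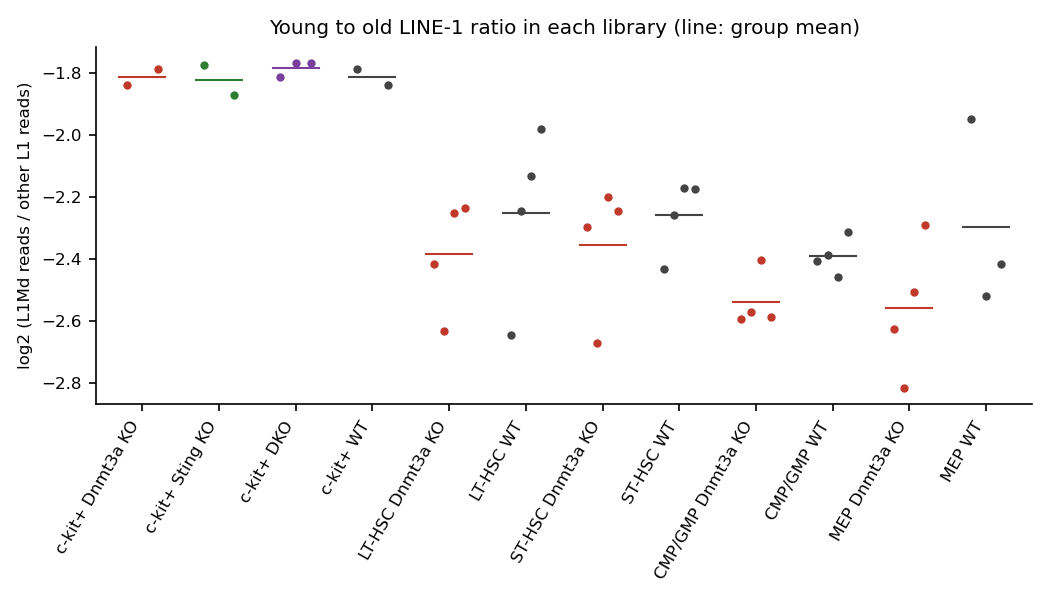
Log2 ratio of L1Md to old L1 reads in each library of the 12 groups. Points are libraries, lines are group means, and the axis does not start at 0. The c-kit+ libraries lie between -1.87 and -1.77, and KO and WT overlap in each sorted population.

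Genes that act on L1 were read from the gene counts, as 21 silencing genes, 18 restriction genes and L1td1, a gene derived from an L1 protein. Of these 40, 39 were tested. In c-kit+ Dnmt3a KO against WT, 2 restriction genes rose and 1 silencing gene, Dnmt3a, fell, when 0.288% of 15953 genes tested rose and 0.263% fell. Apobec3, a cytidine deaminase that restricts retroelements, had 235 and 220 CPM in Dnmt3a KO, 227 and 221 in Sting KO and 193, 181 and 155 in DKO, against 68.8 and 69.1 in WT. All 7 libraries of the 3 KO genotypes were far above both WT libraries. It rose in Dnmt3a KO (log2 fold change 1.72, SE 0.11, edgeR adjusted p = 0.000782), in Sting KO (1.74, SE 0.11, edgeR adjusted p = 0.000355) and in DKO (1.38, SE 0.11, edgeR adjusted p = 0.000600). These calls held in all 10 alternatives, and the 3 comparisons share their 2 WT libraries. Those 2 also lay below every sorted WT library with gene totals, where Apobec3 had 127 to 276 CPM. Sorted Dnmt3a KO libraries had 53.1 to 267 CPM of it. Why c-kit+ WT is low beside sorted WT was not tested.

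Adar, which edits double-stranded RNA and is induced by interferon, was high in Dnmt3a KO alone. It had 150 and 143 CPM in Dnmt3a KO, 91.8 and 88.7 in Sting KO and 100.5, 81.4 and 94.1 in DKO, against 92.2 and 87.0 in WT. It rose in Dnmt3a KO against WT (0.70, SE 0.09, edgeR adjusted p = 0.0144) and fell in DKO against Dnmt3a KO (-0.64, SE 0.08, edgeR adjusted p = 0.0216), when 0.144% of genes fell in the second comparison. Both calls were lost without either Dnmt3a KO library, the first also without either WT library and the second also without DKO 3, with adjusted p up to 0.158 and 0.474. L1 subfamilies did not fall in that comparison beyond the threshold, as given above.

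Dnmt3a fell in Dnmt3a KO (-0.82, SE 0.13, edgeR adjusted p = 0.0326) and in DKO (-0.84, SE 0.12, edgeR adjusted p = 0.0157) against WT to the levels given above. Gene-level counts do not separate the floxed part of Dnmt3a from the rest. The other silencing genes, among them Trim28, Setdb1 and Dnmt3b, were not called in c-kit+ cells by edgeR. In the sorted populations none of the 39 genes was called by edgeR, and none of all genes was (0%). The median log2 fold change of the 21 silencing genes was -0.12 in CMP/GMP, 0.03 in LT-HSC and 0.20 in MEP, beside 0.01, 0.01 and -0.02 for all genes. DESeq2 called 2 of the 39 in CMP/GMP, and 1.2% of all genes, and edgeR called 13 in MEP without KO 1, and 23.8% of all genes.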

How the data were processed

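Counts are the authors' deposited raw read counts per gene symbol (35976 entries) and per TE subfamily (1146). Per the labels' protocols, polyA RNA went through a modified SMART-Seq2 amplification. The submitters' processing notes name Trim Galore 0.6.7, HISAT2, mm10, featureCounts 2.0.1 and DESeq2 1.34.0. The sources used here do not give the annotation, the strand setting or the handling of reads with several matches, and repeats as young as L1Md are the most exposed to the last of these.

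Groups came from the labels. Of the gene columns, 32 were used and 8 were not, because they carry ST-HSC names 2 times each. All 40 TE columns were used. In R 4.3.3, edgeR 4.0.16 was run on the whole TE table with library sizes and TMM factors from gene counts (from TE counts where ST-HSC enters), after a filter (minimum count 10, minimum total 15), with adjustment over all TE subfamilies tested and a threshold of 0.05. The c-kit+ groups were fitted together, each sorted population alone, and WT populations in 1 fit. Self-tests on simulated counts were run. The young to old ratio is the log2 of summed L1Md over summed old L1 reads.

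All L1Md subfamilies are named, as are the most abundant Lx ones. Called subfamilies are named if their mean is at least 5 reads per 1e6 gene reads (RPM) over the libraries compared. The rule also takes in the most abundant old ones, L1_Mus3 and L1_Mus1, both with rodent-lineage names. They hold 7.79% and 6.76% of old L1 reads, and their single tests are not given here. The classes, gene lists and comparisons were chosen with earlier results of these data known. Alternatives were DESeq2 1.42.0, RLE factors, no filter, TE library sizes, the replicate number as a block, 2 groups only, a term for sex, other denominators of the ratio and leaving out each library. Summed near-identical libraries, LT-HSC without both TE-rich libraries and the alternatives for control genes were added after seeing the data.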

Additional observations from a re-analysis of the deposited data

Results flagged for a closer look

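Of 141 sets of values in groups of 4 libraries, 13 held 1 library far from the other 3, where chance gives about 5% of independent sets. These sets are not independent, since they share libraries and the L1Md class holds its own subfamilies. The number of flags therefore does not show an excess. In MEP Dnmt3a KO, library 1 was low for L1Md as a class, at 294 reads per 1e6 gene reads (RPM) against 1365 to 1555 in the other 3. It was also low for L1Md_A (38.4 against 147 to 166), L1Md_F3 (21.6 against 116 to 133) and L1Md_T (73.7 against 348 to 404). L1ME3C was high in the library labelled MEP Dnmt3a KO 2, at 39.2 against 0.963 to 2.47.

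In CMP/GMP Dnmt3a KO, library 3 had a log2 young to old ratio of -2.41, against -2.60 to -2.57 in the others, and 184 RPM of L1Md_T, against 119 to 126. In CMP/GMP WT, L1Md_F was 8.89 in library 1, against 5.74 to 6.08, and L1Md_Gf was 8.25 in library 3, against 14.2 to 14.4.

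In ST-HSC, in reads per 1e6 TE reads, L1Md_F2 was 6327 in Dnmt3a KO 2, against 8651 to 9103 in the other KO libraries. Among ST-HSC WT, L1Md_F was 316 in library 2, against 416 to 425. L1Md_F3 was 2023 in library 3, against 1491 to 1559. L1Md_T was 4290 in library 1, against 6523 to 6562.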

How the results depend on the processing

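The number of L1 subfamilies called changed with the processing, and the direction of no called subfamily or gene named here did. The counts here are of L1 alone and show no change particular to L1. Calls among all TE changed as well where their share is known. For WT LT-HSC against CMP/GMP it was 0.726% with edgeR and 35.4% with DESeq2, and against MEP 0.622% and 18%. For the other settings listed only here the share of all TE is not given. In c-kit+ Dnmt3a KO against WT the count was 1, and it was 4 with DESeq2, 4 with no filter, 0 with TE library sizes, 0 with a term for sex, 7 with 2 groups only, and 0 to 5 when single libraries were left out. In Sting KO it was 0, and 3 with 2 groups only. In DKO against WT it was 1, and 2 with DESeq2, 3 with no filter, 0 with TE library sizes and 0 to 2 when single libraries were left out. In DKO against Sting KO it was 0, and 0 to 1 when single libraries were left out. In the interaction it was 0, and 1 with DESeq2, 1 with no filter and 0 to 1 when single libraries were left out. In MEP it was 0, and 3 with DESeq2 and 0 to 70 when single libraries were left out, and in the test between populations 0, and 1 with DESeq2 and 0 to 23. In WT LT-HSC against CMP/GMP it was 2, and 80 with DESeq2, 33 with RLE factors, 0 with TE library sizes, 49 with a term for sex, 0 with near-identical libraries summed and 0 to 87 when single libraries were left out. Against MEP it was 1, and 26 with DESeq2 and 0 to 39. The cause was not tested.

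Same-numbered libraries did not deviate together in every pair of any population (correlations of their deviations of -0.0934 to 0.0781 in CMP/GMP, -0.198 to 0.120 in LT-HSC, -0.0724 to 0.0932 in MEP, 0.00814 to 0.130 in ST-HSC and -0.0620 to 0.0663 in c-kit+, with all 4 positive in ST-HSC but not all over 0.1), and the main fits did not pair them. Whether same-numbered libraries share a batch cannot be told from this. The highest correlation of any pair was 0.337, between LT-HSC Dnmt3a KO 2 and LT-HSC WT 1, which differ in number. These are the TE-rich libraries of LT-HSC, and why they deviate together was not tested. Between c-kit+ groups of 2 libraries the correlations are equal and opposite by construction. Same-numbered KO and WT libraries of LT-HSC and of MEP also match in sex. With the replicate block, the count of L1 subfamilies was 3 in c-kit+ Dnmt3a KO, 2 in DKO against WT, 15 in WT LT-HSC against CMP/GMP and 13 against MEP. The share of all TE called with this block is not given here.

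The young to old ratio of DKO against WT, 0.03, was 0.065 without rodent names in the old class and -0.0089 with Lx and old together. That of DKO against Sting KO, 0.04, was -0.0089 to 0.087 when single libraries were left out. Control genes called numbered 5 with DESeq2 and 1 to 4 with single libraries left out in c-kit+ Dnmt3a KO (3 with edgeR), 1 to 3 in DKO against WT (2), 0 to 1 in DKO against Dnmt3a KO (1), 1 with DESeq2 and 0 to 1 in DKO against Sting KO (0), 2 with DESeq2 in CMP/GMP (0) and 0 to 13 in MEP (0). L1M4a1 and L1MEi rest on few reads.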
